A study of Mus musculus with 6 samples.

Results

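Known transcriptional targets of p53 were examined in mouse skin with and without a conditional knockout of Sox4. The genes were Mdm2, Ccng1, Pmaip1, Bbc3, Bax, Sesn1, Zmat3, Phlda3, Eda2r and Ddit4l. They were taken as a list of 10 symbols, and every non-control probe whose accession belonged to one of them was read, out of 37000 genes and unnamed transcripts on the array. Of the 10, 9 were well above background on all 6 arrays, each with 1 probe, and Eda2r was not on any. The data are 1-colour Agilent array profiles of untreated whole skin labelled as telogen, the resting phase of hair follicles, and the series asked what Sox4, a transcription factor of the SoxC group, contributes to skin homeostasis. The 3 wildtype mice (WT) were 20, 19 and 18 weeks old, and the 3 mice with the Sox4 conditional knockout in skin (KO) were 17, 18 and 16 weeks old. All 6 were males on a mixed C57Bl6/129Sv background in proportions of 75 to 25. The sources used here do not name the driver of the deletion.

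The transcription factor p53 is kept scarce in unstressed cells by Mdm2, a ubiquitin ligase that marks it for degradation and that is itself a p53 target, so the pair forms a negative feedback loop. When p53 is stabilised it raises genes that arrest the cell cycle, repair DNA, restrain growth signalling or open the mitochondrial route to apoptosis. In skin it is best known for the response of keratinocytes to ultraviolet light and for hair follicle damage by chemotherapy.

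A search of promoter sequences located letters of the kind that p53 binds. RefSeq promoter windows (build GRCm38.p6, 250 bases before to 50 bases after a start) were used for 8 of the 10 genes, in 11 windows. For the listed genes, windows on 1 chromosome were left out beforehand, while the count over all windows kept that chromosome. Zmat3 and Pmaip1 had no window in the set used. The p53 half-site consensus, 10 letters that read the same on both strands, matched in 5 of these 11 windows, in Ddit4l, Bax, Sesn1, Mdm2 and Ccng1, against 8.36% of all 32851 windows. A match is a description of letters, not of binding. The Sox motif AACAAAG, searched on both strands, matched in 1 of the 11 windows, that of Mdm2, and in 5.85% of all windows; no letters belong to matches of both motifs. The 250 bases before the start are shown for Ccng1 and Ddit4l, the pair that lay higher in KO, for Bax, which lay lower, and for Mdm2, which differed little. Capitals mark the half-site match, which begins at base −185 relative to the start in Ccng1, −90 in Ddit4l, −201 in Bax and −186 in Mdm2.
Ccng1, chr11:40755287-40755536, - strand: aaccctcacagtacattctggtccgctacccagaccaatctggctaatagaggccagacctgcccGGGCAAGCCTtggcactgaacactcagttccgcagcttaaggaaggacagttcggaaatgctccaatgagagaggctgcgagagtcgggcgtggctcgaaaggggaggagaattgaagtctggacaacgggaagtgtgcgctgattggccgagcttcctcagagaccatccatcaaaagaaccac
Ddit4l, chr3:137623422-137623671, + strand: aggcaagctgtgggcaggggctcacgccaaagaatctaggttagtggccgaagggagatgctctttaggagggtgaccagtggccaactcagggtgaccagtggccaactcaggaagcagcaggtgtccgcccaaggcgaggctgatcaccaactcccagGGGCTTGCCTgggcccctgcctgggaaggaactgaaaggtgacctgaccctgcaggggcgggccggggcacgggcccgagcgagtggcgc
Bax, chr7:45466899-45467148, - strand: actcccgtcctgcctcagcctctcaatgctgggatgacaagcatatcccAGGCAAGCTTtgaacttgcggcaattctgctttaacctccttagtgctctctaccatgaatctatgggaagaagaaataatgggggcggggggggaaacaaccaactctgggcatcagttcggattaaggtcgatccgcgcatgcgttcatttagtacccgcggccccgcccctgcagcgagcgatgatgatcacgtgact
Mdm2, chr10:117710759-117711008, - strand: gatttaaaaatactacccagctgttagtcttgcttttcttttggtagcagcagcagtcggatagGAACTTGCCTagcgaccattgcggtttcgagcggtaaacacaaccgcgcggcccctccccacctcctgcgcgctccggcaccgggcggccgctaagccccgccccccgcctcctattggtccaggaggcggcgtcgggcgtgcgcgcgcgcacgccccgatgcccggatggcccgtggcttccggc

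Values are log2 processed signal minus the array's 75th percentile, so 0 is a probe at that percentile; probes of different genes are not compared with each other. Between 52.1% and 66.4% of probes were well above background per array, no non-control spot was saturated, and precision is limited by having 3 arrays a group. Sox4 was lower on every KO array (log2 fold change −3.56, SE 0.13, limma adjusted p = 0.00135), in the direction of the genotype labels. All 9 markers of epidermis, dermis and vessels checked were well above background on all arrays, as were all 24 skeletal muscle genes and all 9 fat genes, so the skin samples included muscle and fat. The skeletal muscle score, the median over those 24 genes of log2 signal minus the gene's WT mean, was 1.17, −0.42 and −0.68 in WT replicates 1, 2 and 3 and 1.74, 2.09 and 1.53 in the KO replicates. WT replicate 1 thus stood apart from the other WT arrays and near the KO arrays. The score over 14 measured T and natural killer cell genes ran from −0.07 to 0.13 in WT and from −1.15 to −1.10 in KO, where 12 of the 14 stayed well above background on all arrays. The score over 14 hair shaft and root sheath genes was 5.13 and 4.49 in KO replicates 1 and 2 and between −0.16 and 0.25 on the other 4 arrays. Of the 14, 13 had positive fold changes and 1, Krt72, a negative one (3.15, 2.67 and 2.60 in KO, 2.79, 3.23 and 2.93 in WT). Krt81 read 2.98 and 2.24 in KO replicates 1 and 2 and from 1.41 to 2.07 on the others. Tchh, the trichohyalin gene of the growing follicle's inner root sheath, read 5.90 and 5.0 in KO replicates 1 and 2 and from −0.33 to 0.26 on the others. These 2 KO arrays thus stand against the telogen label, and the part of hair shaft signal in the results was not tested. In whole tissue, fewer cells of a type and less RNA per cell cannot be told apart.

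The p53 targets pointed in both directions in KO skin, 4 with positive and 5 with negative fold changes. None of the 9 measured genes passed limma's test at an adjusted p of 0.05, in a comparison that called 5 of 22835 genes and transcripts, or 0.0219%. At an unadjusted p under 0.05 there were 3 of the 9, Ddit4l, Ccng1 and Pmaip1, against 11.8% of all genes. The groups were free of overlap for 5 of the 9, against 19.3% of all genes. Of these, 2 were higher in KO (Ddit4l and Ccng1; 7.56% of all genes) and 3 were lower (Pmaip1, Bax and Bbc3; 11.8% of all genes). The median log2 fold change of the 9 was −0.04, and that of all genes −0.09. With KO replicate 3 as the only KO array, assumed to vary like the WT arrays, 130 of 24399 genes were called, none of them among the 9. That fit, added after seeing the data, gave 1.5 for Ddit4l, 0.71 for Ccng1, −0.36 for Pmaip1, −0.30 for Bbc3 and −0.18 for Bax, with limma adjusted p between 0.952 and 0.985. It gave −0.15 for Zmat3, −0.10 for Sesn1, 0.24 for Phlda3 and −0.01 for Mdm2.

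**Figure D1:**
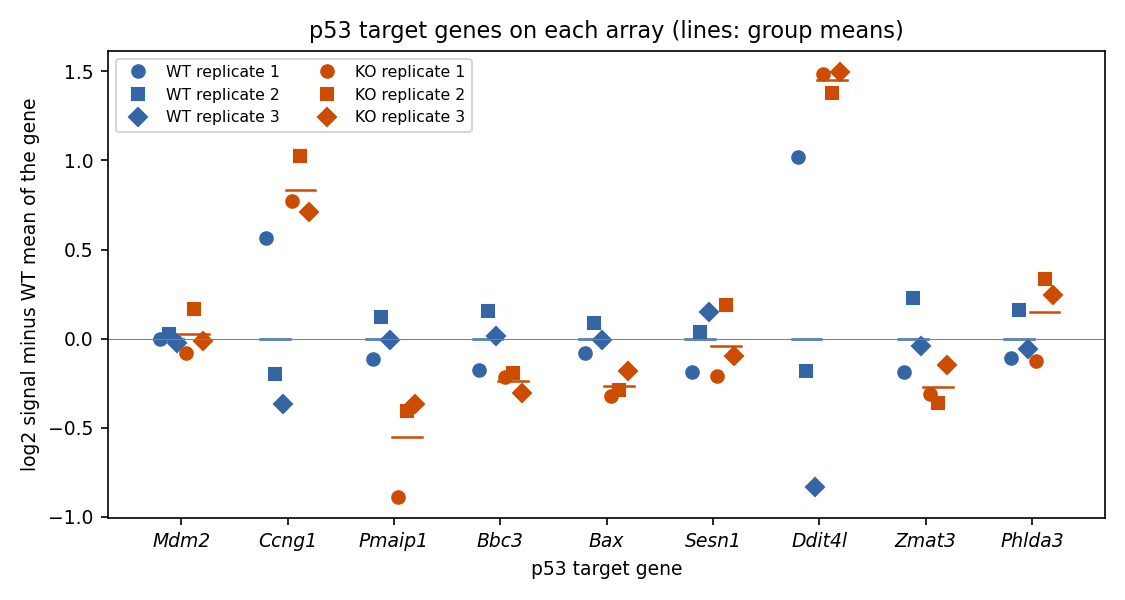
Log2 signal of 9 p53 target genes on each of 6 arrays, each gene set to 0 at its WT mean; blue symbols are WT, orange symbols KO, symbol shapes the replicate number, and short lines the group means (n = 3 per group). Ddit4l and Ccng1 lie highest in KO, with WT replicate 1 nearest to the KO arrays, and Pmaip1 lies lowest in KO replicate 1.

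Among the genes of p53 feedback, Mdm2 read 3.30, 3.33 and 3.28 in WT replicates 1, 2 and 3 and 3.22, 3.47 and 3.29 in the KO replicates. The groups overlapped, with the lowest and the highest value both in KO. Its log2 fold change was 0.02 (SE 0.12, 95% interval −0.25 to 0.30, limma adjusted p = 0.934), and the interval runs from 1.19-fold lower to 1.23-fold higher.

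Ccng1, cyclin G1, guides the phosphatase PP2A to Mdm2 and is among the most strongly p53-dependent genes in many mouse tissues. It read 3.06, 2.30 and 2.13 in WT skin and 3.27, 3.52 and 3.21 in KO. All KO values lay above all WT values, and WT replicate 1 lay closer to the KO arrays than to the other WT arrays. The mean was 2.50 ± 0.50 in WT and 3.33 ± 0.16 in KO (SD, n = 3), a 1.78-fold difference (log2 fold change 0.83, SE 0.26) that missed the threshold (limma adjusted p = 0.325).

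The 3 apoptosis genes had lower means in KO, as did 64.1% of all genes, and none of the 3 passed the test. Pmaip1 encodes Noxa, a BH3-only protein that neutralises the anti-apoptotic protein Mcl1. It read −0.28, −0.04 and −0.17 in WT skin and −1.05, −0.57 and −0.53 in KO. Every KO value was below every WT value, and KO replicate 1 was the lowest by a wide margin. The log2 fold change was −0.55 (SE 0.17, 95% interval −0.97 to −0.13, limma adjusted p = 0.337), or 1.46-fold lower. The T and natural killer cell score was also lower on every KO array (−1.15 to −1.10, against −0.07 to 0.13 in WT; summed level 35.8 to 36.3 against 43.9 to 49.0 times the 75th percentile), and its part in the Pmaip1 value was not tested.

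Bbc3 encodes Puma, a BH3-only protein that binds all anti-apoptotic BCL2 proteins. It read 1.40, 1.73 and 1.59 in WT skin and 1.36, 1.38 and 1.27 in KO. The groups did not overlap, but KO replicate 2 and WT replicate 1 differed by little. The log2 fold change was −0.23 (SE 0.13, limma adjusted p = 0.502). Bax, which forms the pores in the outer mitochondrial membrane, read 2.29, 2.46 and 2.36 in WT skin and 2.05, 2.08 and 2.19 in KO. Its values did not overlap between groups and varied little within them, with SDs of 0.09 in WT and 0.07 in KO. The log2 fold change was −0.26 (SE 0.11, limma adjusted p = 0.431), or 1.2-fold lower.

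The growth restraint genes differed from each other. Sesn1, a sestrin that lowers mTORC1 activity under stress, read 2.93, 3.16 and 3.27 in WT skin and 2.91, 3.31 and 3.02 in KO. The groups overlapped over almost their whole range, with a log2 fold change of −0.04 (SE 0.16, 95% interval −0.41 to 0.33, limma adjusted p = 0.917). Ddit4l, also called Redd2, is an inhibitor of mTORC1 known for its expression in skeletal muscle.

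Ddit4l had the largest difference of the 9 genes. It read 0.90, −0.30 and −0.95 in WT skin and 1.37, 1.26 and 1.38 in KO. The KO arrays were tightly grouped while the WT arrays spread widely, WT replicate 1 lying nearest to KO. The means were −0.12 ± 0.94 and 1.33 ± 0.07 (SD, n = 3), a 2.74-fold difference (log2 fold change 1.45, SE 0.44, 95% interval 0.40 to 2.51) with limma adjusted p = 0.319. Without WT replicate 1 the log2 fold change was 1.96 and passed (limma adjusted p = 0.0432), in a fit that called 250 genes; Ccng1 then had 1.12 (limma adjusted p = 0.0501).

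Phlda3, a pleckstrin homology protein that competes with Akt for membrane lipids, read 5.06, 5.33 and 5.11 in WT skin and 5.04, 5.50 and 5.41 in KO. The lowest value was a KO array, and the groups overlapped (log2 fold change 0.15, SE 0.16, limma adjusted p = 0.688). Zmat3, a zinc finger RNA-binding protein, read 1.72, 2.14 and 1.87 in WT skin and 1.60, 1.55 and 1.76 in KO. Only WT replicate 1 fell within the KO range, and the log2 fold change was −0.27 (SE 0.15, limma adjusted p = 0.501). Eda2r, a receptor for the A2 form of ectodysplasin, was not well above background on any array with either of its 2 probes. Their signals ran from 4.0 to 17.2 units, where the dimmest probe well above background read 6.13 to 27.1 units depending on the array, so no fold is given.

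**Figure D2:**
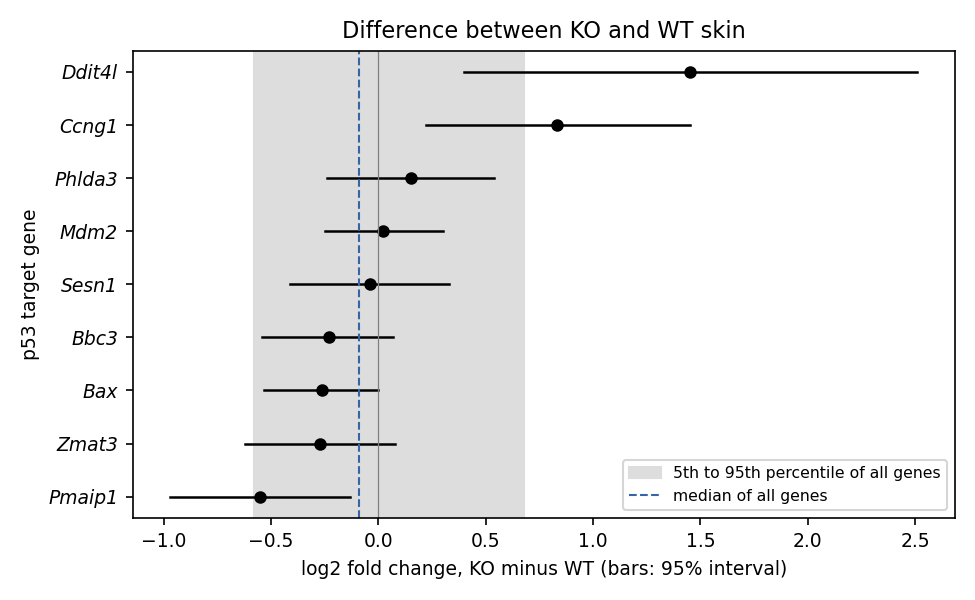
Log2 fold change, KO minus WT, of 9 p53 target genes (points) with 95% intervals from limma (bars, n = 3 per group); the grey band is the 5th to 95th percentile of all 22835 genes and transcripts, −0.58 to 0.68, and the dashed line their median, −0.09. Ddit4l and Ccng1 lie beyond the band, and the other 7 lie within it.

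The differences in Ddit4l and Ccng1 ran alongside skeletal muscle signal. All 24 muscle genes had positive fold changes (median 1.79), and their summed signal was 3241, 1196 and 900 times the 75th percentile in WT replicates 1, 2 and 3 and 3977, 4992 and 3749 times in the KO replicates. Ddit4l, Ccng1 and the muscle score were each highest in WT replicate 1 and lowest in WT replicate 3 among the WT arrays. Among the KO arrays the order differed: the score was highest in KO replicate 2, where Ccng1 was also highest (3.52) but Ddit4l was lowest (1.26). When the muscle score was added as a covariate, the KO minus WT difference was −0.01 (SE 0.37) for Ddit4l and −0.05 (SE 0.19) for Ccng1, against 1.45 and 0.83 without it. Score and genotype overlap heavily in these 6 arrays, so this fit divides a shared difference between them. The same fit gave −0.41 (SE 0.32) for Pmaip1, −0.13 (SE 0.20) for Bax, −0.03 (SE 0.21) for Bbc3 and 0.01 (SE 0.24) for Zmat3.

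**Figure D3:**
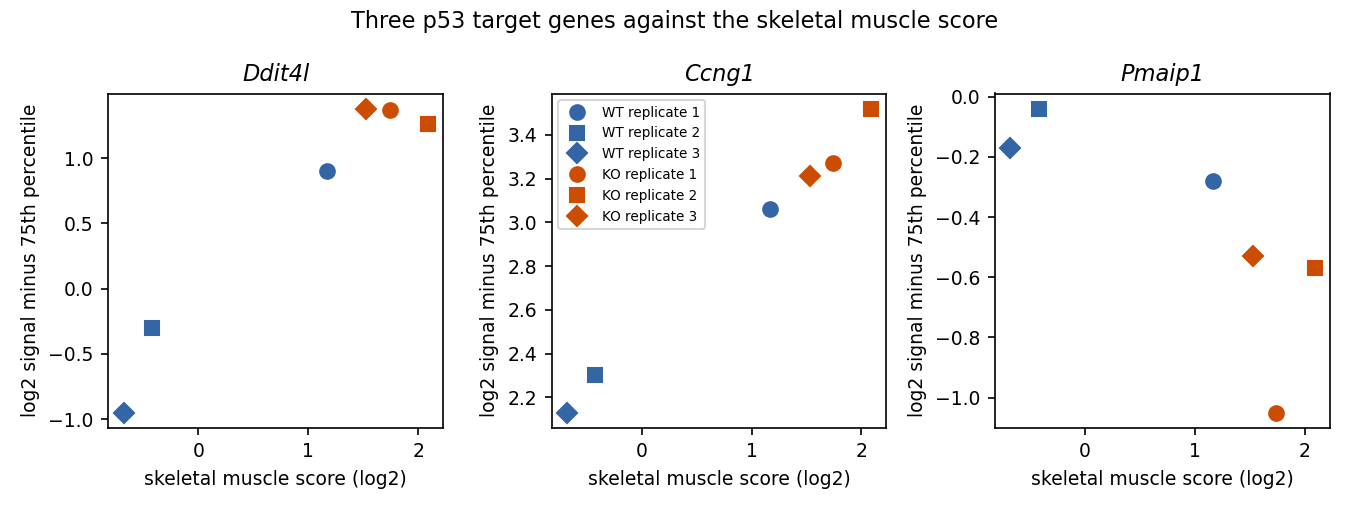
Log2 signal relative to the 75th percentile of Ddit4l, Ccng1 and Pmaip1 against the skeletal muscle score (log2) on each of 6 arrays; blue symbols are WT and orange symbols KO. WT replicate 1, with a score of 1.17, lies between the other WT arrays and the KO arrays for Ddit4l and Ccng1.

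The KO minus WT differences were unequal between the slides on which arrays were printed. On slide 1, which held WT replicate 1 and KO replicate 3, the KO minus WT difference was 0.47 for Ddit4l, 0.15 for Ccng1 and −0.24 for Pmaip1. On slide 2, which held KO replicate 1 and WT replicates 2 and 3, the differences were 2.0, 1.06 and −0.95. The only WT array on slide 1 was WT replicate 1, with a muscle score of 1.17. Slide and muscle signal thus cannot be told apart here. KO replicate 2 was alone on slide 3 and so adds nothing to a fit with slide as a block, where the values were 1.34, 0.67 and −0.65 (limma adjusted p = 0.560, 0.602 and 0.564). Bax differed by −0.10 on slide 1 and −0.36 on slide 2, and Bbc3 by −0.13 and −0.29. Age also differed between groups, and with age as a covariate Ddit4l had 2.32 and Ccng1 1.45 (limma adjusted p = 0.192 and 0.112). The mice were 18 to 20 weeks old in WT and 16 to 18 in KO, and WT replicate 1 was the oldest. Age and genotype thus overlap heavily, and this fit can hardly tell them apart.

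The genes whose arrays followed Ddit4l and Ccng1 most closely were sought by root mean square distance over the 6 arrays, each gene centred on its WT mean. Nearest to Ddit4l were Trim72 (distance 0.05 log2), a membrane repair protein of striated muscle, A930016O22Rik (0.12) and Myh8 (0.17), the perinatal myosin heavy chain. Nearest to Ccng1 were the predicted gene Gm12070 (0.07), Ppm1l (0.08), a protein phosphatase, and the predicted gene Gm5523 (0.08). Trim72, for example, read 1.02, −0.24 and −0.78 in WT skin and 1.52, 1.35 and 1.41 in KO on this centred scale, where Ddit4l read 1.02, −0.19 and −0.83 and then 1.49, 1.37 and 1.5.

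The wider p53 network also held no gene that passed. Across 4 further lists with 84 genes, 75 were measured, none was called by limma and 5 had an unadjusted p under 0.05 (Cdkn2a, Ak1, Rap2b, Bcl2a1d and Bok), or 6.67%, against 11.8% of all genes. KO and WT did not overlap for 9 of the 75, or 12%, against 19.3% of all genes.

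Of 22 regulators of p53, all were measured, 3 had positive and 19 negative fold changes (median −0.12), where 64.1% of all genes were below 0. Trp53, the gene for p53 itself, read −1.39, −0.87 and −1.07 in WT skin and −0.95, −1.18 and −1.30 in KO. The groups overlapped (log2 fold change −0.03, SE 0.17, 95% interval −0.45 to 0.39, limma adjusted p = 0.940). Mdm4, the Mdm2 relative that blocks p53 activity, had a log2 fold change of 0.09 (SE 0.18, limma adjusted p = 0.830), and Trp63, the p53 relative that maintains basal epidermis, −0.21 (SE 0.13, limma adjusted p = 0.548). Atr, a kinase that signals stalled replication, did not overlap between groups and had −0.27 (SE 0.16, limma adjusted p = 0.519).

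Cdkn2a, whose locus encodes the p53-stabilising protein Arf and the cell cycle inhibitor Ink4a, was the most variable regulator. It read 1.83, −1.62 and 1.0 in WT skin and −2.88, −1.59 and −2.80 in KO. WT replicate 2 lay at the level of KO replicate 2, while WT replicates 1 and 3 stood far above. The log2 fold change was −2.83 (SE 0.89, limma adjusted p = 0.334), with differences of −4.64 on slide 1 and −2.58 on slide 2. It was −3.84 without WT replicate 2 and −2.12 without WT replicate 1, −1.81 with age as a covariate and −4.85 with the muscle score.

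Of 33 other p53 targets, 32 were measured, with 13 positive and 19 negative fold changes (median −0.06). Cdkn1a, the p21 inhibitor of cyclin-dependent kinases and a standard readout of p53, read 3.05, 3.70 and 3.66 in WT skin and 3.32, 3.27 and 3.05 in KO. Its groups overlapped (log2 fold change −0.25, SE 0.20, limma adjusted p = 0.606), and the difference was −0.46 without WT replicate 1, −0.14 without WT replicate 2, −0.11 with its kept probes averaged and 0.29 once the muscle score was included. Ak1, an adenylate kinase abundant in muscle, read 5.60, 4.73 and 4.51 in WT skin and 6.08, 6.76 and 5.88 in KO. WT replicate 1 was again the WT array nearest to KO. The log2 fold change of 1.29 (SE 0.35, limma adjusted p = 0.291) was 0.15 (SE 0.32) with the muscle score as a covariate. With age as a covariate, which overlaps heavily with genotype, it was 2.28 and passed (limma adjusted p = 0.0436). Rap2b, a small GTPase, was lower on every KO array (−0.41, SE 0.12, limma adjusted p = 0.309). Tigar, a phosphatase that slows glycolysis, read 0.95, 0.79 and 0.37 in WT skin and 0.95, 1.52 and 1.15 in KO. WT replicate 1 and KO replicate 1 were level to 2 decimals, and Tigar counts among the genes without overlap only by a smaller gap. Its log2 fold change of 0.50 (SE 0.21, limma adjusted p = 0.432) was 0.02 with the muscle score, 0.98 with age and 0.30 with slide as a block.

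**Figure D4:**
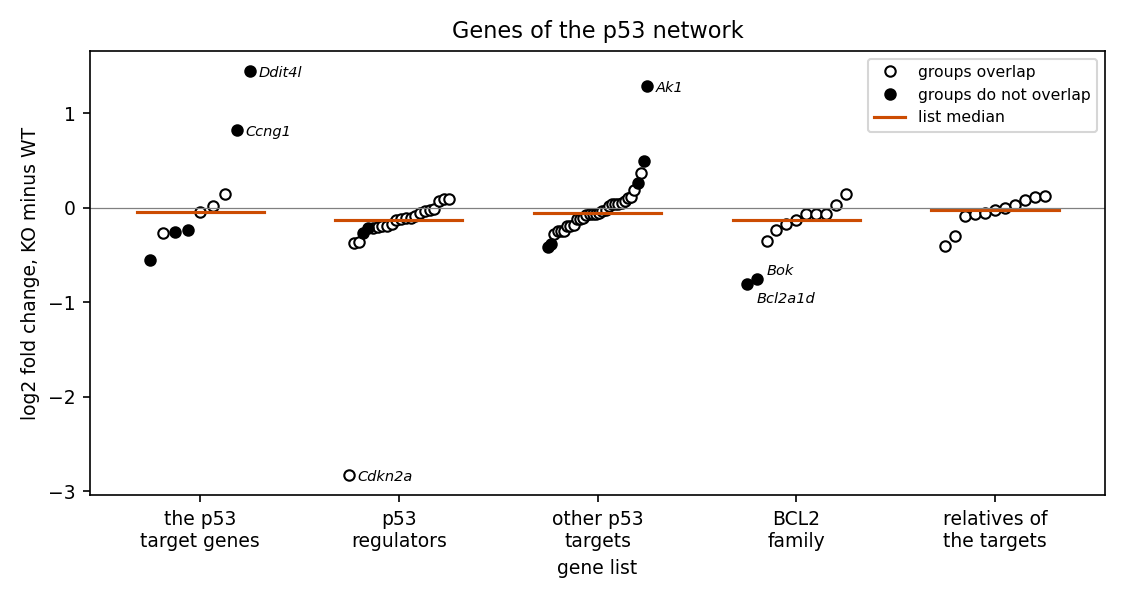
Log2 fold change, KO minus WT, of the 9 measured p53 target genes and of 4 further lists of the p53 network; each circle is a gene, filled where KO and WT values do not overlap, and orange lines are list medians. List medians lie between −0.13 and −0.02, and Cdkn2a, Ddit4l and Ak1 lie farthest from 0.

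Of 16 genes of the BCL2 family, which decide whether Bax opens mitochondria, 11 were measured, with 2 positive and 9 negative fold changes (median −0.13). Bcl2a1d, an anti-apoptotic member of blood-derived cells with close copies that the probe may not tell apart, read 0.74, 0.60 and 1.09 in WT skin and 0.05, −0.01 and −0.05 in KO. The groups were well separated (log2 fold change −0.81, SE 0.15, limma adjusted p = 0.275), and the difference was −0.79 on slide 1 and −0.80 on slide 2. The T and natural killer cell score was lower on the same 3 KO arrays, and its part in the Bcl2a1d value was not tested. Bok, a pro-apoptotic relative of Bax, read 3.24, 3.70 and 3.07 in WT skin and 2.67, 2.44 and 2.66 in KO, with no overlap (−0.75, SE 0.19, limma adjusted p = 0.277). Bid, which links death receptors to Bax, overlapped (−0.23, SE 0.16, limma adjusted p = 0.556).

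Of 14 relatives of the p53 targets, such as the other sestrins, cyclin G2 and Ddit4, 11 were measured. All 11 overlapped between groups, 5 fold changes were positive and 6 negative (median −0.02), and adjusted p ran from 0.487 up to 0.997. Edaradd, the adaptor of the ectodysplasin receptor Edar, had −0.40 (SE 0.20; −0.23 without KO replicate 2), Phlda1, a relative of Phlda3 used as a hair follicle stem cell marker, −0.30 (SE 0.22; −0.15 without WT replicate 1 or KO replicate 3, −0.50 without WT replicate 2, 0.01 with age), and Eda, the ectodysplasin ligand, 0.11 (SE 0.11).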

How the data were processed

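The scanner files hold spot intensity values from Agilent Feature Extraction (version 11.5.1.1, per the file headers), deposited background-subtracted and spatially detrended, with no scaling between arrays. Deposited 0 or 1 flags of the other kind mark bright, saturated and outlier spots. Here log2 signal was averaged over unflagged spots of a probe (31 of 55681 probes had none on some array) and each array's 75th percentile subtracted. Accessions were matched to RefSeq GRCm38.p6 (27497 probes named, 28153 not; grid build mm9). Probes bright (well above background) on every array of a group were kept (30096), and the brightest stood for a gene, giving 22835 genes and transcripts. Genotypes were compared by limma (3.58.1, R 4.3.3), no covariate, two-sided, with Benjamini-Hochberg adjustment over all of them. Mice within a group had different ages and were taken as separate animals; 3 arrays a group limit precision.

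Data were simulated with these means and spreads (22835 genes, 200 changed per run, 10 runs), with noise drawn separately for each gene. The fit recovered 48.6% of changes of 1 log2 unit and 91.4% of 3, and 4.64% of its calls were false. Changes under 1 log2 unit, unequal spreads in KO and WT, and shifts shared by many genes were not simulated. These rates therefore need not hold for the real arrays. The deposited log2 value table, whose processing the submitters' notes give only as limma, was not compared: each of its 6 columns followed the scanner array of the opposite group and the same replicate number (r 0.942 to 0.964 over 27364 probes, across probes after removing probe means), against −0.594 to −0.215 for the array in its heading. Its group headings thus stand against the scanner files, in which Sox4 is low in KO.

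Normexp correction used the median spot signal, as the files carry no mean. The p53 targets, the lists, the tests and the alternatives were chosen with earlier results of these data known. Genes named are the 10 targets, Sox4, Trp53, Mdm4, Cdkn1a and Trp63, the 3 of smallest p in each network list, and the 3 nearest in pattern to the 2 targets of smallest p.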

Additional observations from a re-analysis of the deposited data

How the results depend on the processing

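Over 19 alternatives, Pmaip1, Bax and Bbc3 stayed below 0 (−0.65 to −0.36, −0.35 to −0.13 and −0.32 to −0.03) and Phlda3 above 0 (0.05 to 0.29), all uncalled. Ddit4l and Ccng1 were positive in all but the fit with the muscle score. The count of called p53 targets was 0 except without WT replicate 1 (0 to 1 over the fits with 1 array left out), and that of other network genes was 0 except 1 with age as a covariate.

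With the muscle score in the fit signs turned for Ddit4l (−0.01), Ccng1 (−0.05), Mdm2 (−0.02), Sesn1 (0.16), Zmat3 (0.01), Trp53 (0.32), Mdm4 (−0.02), Cdkn1a (0.29) and Bid (0.14), and Sox4 (−3.32) lost its call. Mdm2 also turned with normexp (−0.01), normexp and quantile normalization (−0.02), slide as a block (−0.05) without KO replicate 2 (−0.05) and with KO replicate 3 alone against WT (−0.01). Sesn1 turned without WT replicate 3 or KO replicate 1 (0.04 each). Trp53 turned with slide as a block (0.05) and without WT replicate 2 (0.09) or KO replicate 3 (0.05), and was −0.17 without WT replicate 1. Adding age turned Mdm4 (−0.04), Atr (0.04), Phlda1 (0.01) and Eda (−0.02); Mdm4 also turned without WT replicate 2 (−0.09), and was 0.19 without WT replicate 3. The cause was not tested.

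All genes called numbered 8 with normexp alone, with normexp and quantile normalization, and with slide as a random block; 11 with quantile normalization, 15 with median centring, 9 when probes had to be bright on all 6 arrays, 2 with no filter, 1 with slide as a block, 141 with age, 130 with KO replicate 3 alone against WT and 0 with the muscle score. With 1 array left out they ran from 2 to 250, the 250 without WT replicate 1 and 154 without KO replicate 3. In those fits Sox4 ran from −3.66 to −3.49 and the median of the p53 targets from −0.15 to 0.04. Sox4 was −2.61 with normexp, −2.55 with normexp and quantile normalization and −4.23 with its kept probes averaged. Same-numbered WT and KO samples did not deviate together (correlations −0.13, −0.04 and 0.08). With 3 arrays a group this shows no pairing but cannot exclude it, and the numbers were not treated as pairs. A replicate block left 0 genes called, with Sox4 at −3.56 (limma adjusted p = 0.103) and the p53 targets at 0 called.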
